A study of Mus musculus with 6 samples.

Results

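The integrated stress response and the unfolded protein response were read through 10 genes, *Atf4*, *Atf5*, *Ddit3*, *Trib3*, *Chac1*, *Asns*, *Sesn2*, *Ppp1r15a*, *Hspa5* and *Xbp1*, which were found by name in a table of 34745 genes. RNA-seq was performed on cardiac fibroblasts from the left ventricle on Day 7 after myocardial infarction (MI), in 3 KO-labelled libraries and 3 labelled WT. The KO mice carried a CRISPR/Cas9 deletion over the JmjC (demethylase) domain of *Kdm5b* with a frameshift, and the WT mice were their littermates. All were male, 8 to 10 weeks old, on a C57BL/6 background, and had the left anterior descending artery tied off permanently, so neither label stands for an uninjured heart. The methods state no cell sort, and the general protocol for primary cardiac fibroblasts describes hearts of 2-week-old mice, which is not the age given for these libraries. Whether each library came from a separate mouse is not stated, so the p-values measure the spread between these libraries.

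Both responses slow the synthesis of new protein while they raise a set of rescue genes. In the integrated stress response, the kinases PERK, GCN2, PKR and HRI phosphorylate the initiation factor eIF2, general translation falls, and the mRNA of the transcription factor ATF4 is translated more. In the unfolded protein response, PERK, IRE1 and ATF6 sense unfolded protein in the endoplasmic reticulum (ER), IRE1 splices *Xbp1* mRNA, and chaperones and degradation factors are made. Fibroblasts that secrete collagen after injury carry a heavy load of protein through the ER. Counts per gene show neither the splicing of *Xbp1* nor the translation of *Atf4*, *Atf5*, *Ddit3* and *Ppp1r15a*, where a large share of the control of these genes lies.

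The 10 genes did not move together. *Ppp1r15a* and *Asns* were higher in the KO-labelled libraries, *Atf5* and *Xbp1* were lower (*Xbp1* was higher under marker scaling, described below), and the remaining 6, among them *Atf4*, *Ddit3* and *Hspa5*, did not pass an adjusted p of 0.05 in edgeR's quasi-likelihood test. Under marker scaling 8 of the 10 were called higher and 0 lower, and *Atf5* lost its call (adjusted p = 0.266). That scaling called 59.9% of all genes tested higher and 0.291% lower. On the TMM scale the 2 higher genes of 10 stand beside 17.7% of the 14084 genes tested, the 2 lower genes beside 12.5%, and the 4 called in either direction beside 30.2%. In 5 of the 10 genes the libraries of the 2 labels did not overlap, against 47.0% of all genes tested. The median log2 fold change was 0.03 over the 10 genes and -0.015 over all genes tested, and the median size of the change was 0.21 and 0.22. No gene of the 10 passed a 2-fold change. All 10 were well counted, with between 862 and 16291 counts per library, and all passed the expression filter.

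**Figure D1:**
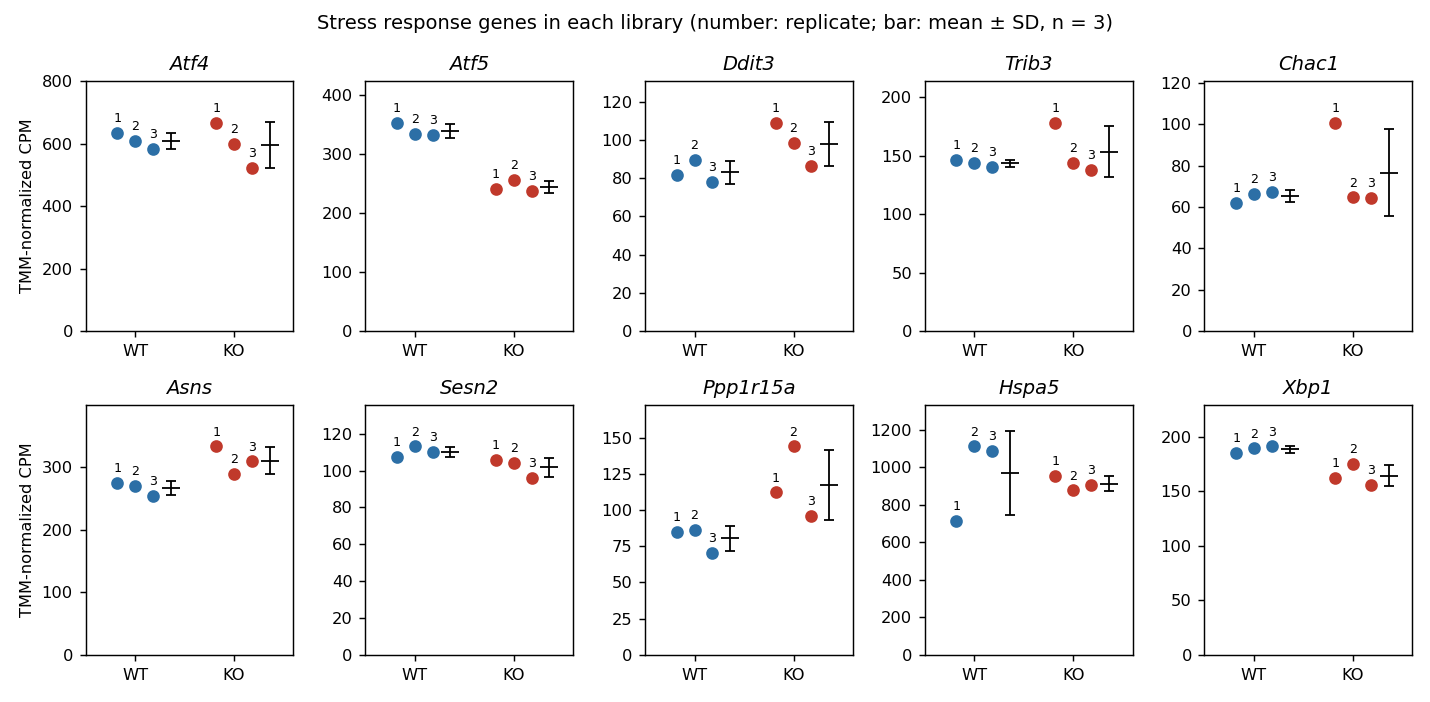
CPM, the counts scaled by library size and TMM (vertical axes from 0), of each of the 10 stress genes in the 3 libraries labelled WT and the 3 labelled KO, with the replicate number beside each point and the mean ± SD (n = 3) beside each group. The labels are apart in *Atf5*, *Asns*, *Sesn2*, *Ppp1r15a* and *Xbp1*, *Chac1* has 1 high library (KO replicate 1) and *Hspa5* has 1 low library (WT replicate 1).

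The libraries held 12025403 to 15329427 counts, and 73.2% of their variance lay on 1 principal component, along which the labels were apart. *Kdm5b*, the targeted gene, was lower in every KO-labelled library without passing the threshold (log2 fold change -0.22, adjusted p = 0.0574 from edgeR, and 0.18 under marker scaling), so groups are called by their labels here. It passed on the upper quartile (adjusted p = 0.0324 from edgeR), with a block for replicate numbers (0.0271) and without WT replicate 1 (0.0188). The paper, in contrast, reports almost no *Kdm5b* mRNA (Q-PCR) or protein (immunoblot) in fibroblasts of the KO mice. Counts over the whole gene also take reads from outside the deleted part, and their share in this difference was not tested. Of 13 fibroblast markers 12 were lower, with a median of -0.42 and a summed level of 27924 to 32530 CPM in the KO-labelled libraries against 38757 to 41279. Of 12 endothelial markers 11 were higher, with a summed level of 1525 to 2189 CPM against 284 to 293. Cardiomyocyte markers summed to 807 to 906 CPM against 1128 to 1149, and 7 of 12 were lower. Macrophage markers summed to 1182 to 1227 CPM against 1480 to 1570, with 7 of the 11 tested lower, 1 higher and *Cd163* at 0 in every library. Neutrophil markers summed to 8.63 to 11.3 CPM against 4.50 to 6.04, with 2 of the 4 tested higher and 0 lower. Mural markers summed to 446 to 460 CPM against 375 to 415, with 2 of the 7 tested higher and 3 lower. Mast cell markers summed to 11.3 to 12.7 CPM against 13.3 to 16.4, and none was called. Lymphocyte markers summed to at most 0.901 CPM and erythroid markers to at most 0.300 CPM in any library. Marker scaling, which brings cardiomyocyte and macrophage markers to a median ratio of 1 between libraries, moved the median of all genes from -0.015 to 0.385 and that of the fibroblast markers from -0.42 to -0.02. It added 0.394 to 0.415 to the log2 fold change of each of the 64 genes named by rule. All 29 of them that rose stayed called higher. This is no check of these calls, since a shift upward cannot make a rise smaller. Changes here are on the TMM scale and so are relative to the median gene. The part of these marker differences in any result below was not tested, and in bulk RNA fewer cells of a type and less RNA per cell cannot be told apart.

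Sequence elements of the 2 responses were looked for in the promoter windows that RefSeq gives for GRCm38.p6, from 250 bases before to 50 after a start. All 10 genes matched, in 11 windows, since *Atf5* has 2 starts. The C/EBP-ATF response element (CARE), at which ATF4 is known to bind with C/EBP partners, was searched by its core TGATGNAA on both strands. It was found in *Chac1*, *Trib3* and *Asns* and in 3.97% of all 32851 windows (2.32% of the 13211 windows of tested genes). The ER stress element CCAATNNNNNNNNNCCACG, known from promoters of ER chaperones, was found in *Hspa5* and in 0.119% of windows (0.129% of those of tested genes). The cAMP response element TGACGTCA was found in *Ppp1r15a* and in 1.79% of windows (2.97%). The UPR element TGACGTGG (0.676% of windows, 0.893% of those of tested genes) and the second form of the ER stress element, ATTGGNCCACG (0.0365% and 0.0606%), were in no window of the 10 genes. The elements do not overlap one another in these windows. The 5 matches are shown because they separate the genes by element, each as 30 bases of the gene's own strand, 5′ to 3′, with the match in capitals.
Asns, chr6:7693214-7693243, minus strand, CARE core 23 bases before the start: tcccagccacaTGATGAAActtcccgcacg
Chac1, chr2:119351038-119351067, plus strand, CARE core in reverse, 193 bases before the start: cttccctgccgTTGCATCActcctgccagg
Trib3, chr2:152344028-152344057, minus strand, CARE core in reverse, at base 15 after the start: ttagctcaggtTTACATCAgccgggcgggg
Hspa5, chr2:34772020-34772049, plus strand, ER stress element 65 bases before the start: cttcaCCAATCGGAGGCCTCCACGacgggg
Ppp1r15a, chr7:45526262-45526291, minus strand, cAMP response element 12 bases before the start: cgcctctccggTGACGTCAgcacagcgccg
Of the 3 genes with a CARE core, *Asns* was called higher, and *Chac1* and *Trib3* were not called. Before and after refer to the RefSeq start. It lies 45 bases from the start of the listed gene for *Asns*, 120 for *Hspa5*, 28 for *Trib3*, 13 for *Chac1* and 0 for *Ppp1r15a*. By the listed positions, the matches of *Asns* and *Hspa5* lie inside the gene, and that of *Trib3* lies before its start. A match describes letters in a window and no binding was measured here.

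The promoters of the gene with the largest rise and the gene with the largest fall among the 10 are given in full, as the 250 bases before the RefSeq start on the gene's own strand. The *Ppp1r15a* window holds the cAMP response element in capitals near its end, and the *Atf5* window, taken at the start next to the listed gene, holds none of the elements.
Ppp1r15a, chr7:45526269-45526518, minus strand: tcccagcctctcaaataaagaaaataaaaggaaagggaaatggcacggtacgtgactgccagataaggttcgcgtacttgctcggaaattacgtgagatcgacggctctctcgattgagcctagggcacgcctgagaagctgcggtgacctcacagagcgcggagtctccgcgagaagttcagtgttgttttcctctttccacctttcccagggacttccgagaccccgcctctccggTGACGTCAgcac
Atf5, chr7:44816659-44816908, minus strand: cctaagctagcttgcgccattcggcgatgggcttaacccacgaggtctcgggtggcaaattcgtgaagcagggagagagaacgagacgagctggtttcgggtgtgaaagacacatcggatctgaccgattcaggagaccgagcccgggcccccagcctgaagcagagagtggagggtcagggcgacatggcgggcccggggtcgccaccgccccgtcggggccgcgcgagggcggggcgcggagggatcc

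*Atf4* (ENSMUSG00000042406, chromosome 15 from 80255184 to 80257540 in mm10) encodes the transcription factor on which the integrated stress response converges. Its mRNA stood at 667, 598 and 522 CPM in KO replicates 1 to 3 and at 633, 609 and 582 CPM in WT replicates 1 to 3. The KO-labelled libraries held both the highest and the lowest value, on either side of the WT range. The log2 fold change was -0.03 with a 95% interval from -0.22 to 0.16 (adjusted p = 0.811 from edgeR). The sign rested on the scaling, with 0.0036 on library size and 0.37 under marker scaling (adjusted p = 0.00615).

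*Atf5* (ENSMUSG00000038539, chromosome 7 from 44812256 to 44816599), a related factor whose translation is also raised by eIF2 phosphorylation and which is known for the mitochondrial stress response, showed the clearest difference of the 10. It stood at 241, 256 and 238 CPM in the KO-labelled libraries and at 353, 334 and 332 CPM in the WT-labelled libraries. Every KO-labelled library was below every WT-labelled library, and the replicates of a label lay close together. The fall was -0.47 on the log2 scale (standard error 0.05, adjusted p = 2.9e-04 from edgeR), or 0.72 of the WT level, and the call held when each library was left out in turn. Under marker scaling the value was -0.07 (adjusted p = 0.266). Its size was close to the median of the 13 fibroblast markers, -0.42 (-0.02 under marker scaling), whose part in it was not tested. *Atf5* shares 82 exon bases, 4.11% of its own, with *Il4i1* and *Nup62* on the other strand, and whether counting used strand is not stated.

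*Ddit3* (ENSMUSG00000025408, chromosome 10 from 127290774 to 127296288) encodes CHOP, the transcription factor associated with cell death under lasting ER stress. It stood at 109, 98.6 and 86.3 CPM in the KO-labelled libraries and at 81.6, 89.5 and 77.9 CPM in the WT-labelled libraries. KO replicate 3 fell below WT replicate 2, so the labels overlapped by this pair of libraries. The log2 fold change was 0.24 with a 95% interval from 0.03 to 0.45 and did not pass the adjusted threshold (adjusted p = 0.0864 from edgeR). Without KO replicate 3 the value was 0.33 with an adjusted p of 0.0294, and under marker scaling it was 0.64. *Ddit3* shares 68 exon bases, 3.97% of its own, with *Mars* on the other strand. It shares 105, or 6.13%, with another *Ddit3* entry (ENSMUSG00000116429) on the same strand, which the deposited table does not list.

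*Trib3* (ENSMUSG00000032715, chromosome 2 from 152337422 to 152344032), a pseudokinase that is induced by CHOP and ATF4 and restrains ATF4, had 178, 144 and 138 CPM in the KO-labelled libraries and 146, 144 and 140 CPM in the WT-labelled libraries. The log2 fold change was 0.10 (95% interval -0.12 to 0.31, adjusted p = 0.472 from edgeR). *Chac1* (ENSMUSG00000027313, chromosome 2 from 119351229 to 119354381), an enzyme that degrades glutathione, had 101, 64.7 and 64.5 CPM against 62.0, 66.5 and 67.5 CPM. Its log2 fold change of 0.23 (95% interval -0.14 to 0.60, adjusted p = 0.325 from edgeR) came from KO replicate 1, since the other two KO-labelled libraries lay inside the WT range. Without KO replicate 1 both genes changed sign, to -0.02 for *Trib3* and -0.01 for *Chac1*. Under marker scaling both were called higher, *Trib3* at 0.50 (adjusted p = 0.00355) and *Chac1* at 0.63 (0.0125).

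*Asns* (ENSMUSG00000029752, chromosome 6 from 7675169 to 7693254), the enzyme that makes asparagine and a standard readout of ATF4 activity, stood at 333, 289 and 309 CPM in the KO-labelled libraries and at 275, 271 and 254 CPM in the WT-labelled libraries. The labels were apart, with KO replicate 2 nearest to the WT libraries. *Asns* rose by 0.22 on the log2 scale (standard error 0.06, adjusted p = 0.0280 from edgeR), a 1.16-fold difference, and by 0.62 under marker scaling (adjusted p = 0.00029). The call did not survive the loss of KO replicate 1 (adjusted p = 0.0622), KO replicate 3 (0.0687), WT replicate 2 (0.0667) or WT replicate 3 (0.0984), nor upper quartile scaling (0.0554), while the direction held in all of these.

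*Sesn2* (ENSMUSG00000028893, chromosome 4 from 132492032 to 132510501) encodes sestrin 2, a leucine sensor that restrains mTORC1. It stood at 106, 104 and 95.9 CPM in the KO-labelled libraries and at 107, 113 and 110 CPM in the WT-labelled libraries. All 3 KO-labelled libraries lay below the WT libraries. The log2 fold change was -0.11 (95% interval -0.24 to 0.01, adjusted p = 0.161 from edgeR) and did not pass the test, and it was 0.29 under marker scaling (adjusted p = 0.00927).

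*Ppp1r15a* (ENSMUSG00000040435, chromosome 7 from 45522916 to 45526268) encodes GADD34, the inducible subunit that brings protein phosphatase 1 to eIF2 and ends the response. It stood at 112, 144 and 96.0 CPM in the KO-labelled libraries and at 84.8, 86.3 and 70.6 CPM in the WT-labelled libraries. Every KO-labelled library was above every WT-labelled library, with a wide spread among the former. The rise of 0.54 on the log2 scale (standard error 0.14, adjusted p = 0.0228 from edgeR), a 1.46-fold difference, was the largest among the 10 genes, and it was 0.94 under marker scaling (adjusted p = 0.000267). Without WT replicate 3 it was 0.45 with an adjusted p of 0.0775, and the call held without any other single library, with the smallest value, 0.38, without KO replicate 2 (adjusted p = 0.0353).

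*Hspa5* (ENSMUSG00000026864, chromosome 2 from 34771970 to 34777547) encodes BiP, the main chaperone of the ER and the protein that holds the unfolded protein sensors inactive. It stood at 957, 877 and 905 CPM in the KO-labelled libraries and at 713, 1112 and 1089 CPM in the WT-labelled libraries. The KO-labelled libraries lay together, and the WT libraries lay on both sides of them. The log2 fold change was -0.09 (95% interval -0.43 to 0.25, adjusted p = 0.682 from edgeR). WT replicate 1 was 0.63 below the other two WT libraries on the log2 scale, and only 11 of the 2110 genes with a mean above 100 CPM lay further below. The same difference was -0.01 for *Hsp90b1*, 0.07 for *Pdia4*, 0.06 for *Calr*, 0.06 for *Dnajb11* and 0.04 for *Hyou1*, ER chaperones and their partners that were chosen for this comparison after the *Hspa5* values were seen. *Sdf2l1*, also of the ER, was lower in WT replicate 1, at 22.75 CPM against 29.35 and 27.87 CPM in WT replicates 2 and 3. Without WT replicate 1 *Hspa5* was lower by 0.27 (log2 fold change -0.27, adjusted p = 0.0112), and without WT replicate 2 its log2 fold change was 0.02.

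*Xbp1* (ENSMUSG00000020484, chromosome 11 from 5520659 to 5525893) encodes the factor that IRE1 activates by splicing its mRNA. It stood at 162, 175 and 156 CPM in the KO-labelled libraries and at 185, 189 and 191 CPM in the WT-labelled libraries. The labels were apart, and the WT libraries were the closer together. *Xbp1* fell by 0.20 on the log2 scale (log2 fold change -0.20, standard error 0.05, adjusted p = 0.0260 from edgeR), and under marker scaling it was higher by 0.20 (adjusted p = 0.0221). Leaving out KO replicate 2 kept the call, and it was lost without any other single library (adjusted p from 0.0525 to 0.0907).

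When the 6 labels were permuted exactly, two-sided, for each gene, p was 0.1, the smallest that 3 against 3 allow, for *Atf5*, *Asns*, *Sesn2*, *Ppp1r15a* and *Xbp1*. These are the genes whose labels did not overlap, which always gives this p. The same exact permutation test gave p = 0.2 for *Ddit3*, 0.7 for *Chac1*, 0.8 for *Atf4*, 0.9 for *Trib3* and 1 for *Hspa5*.

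**Figure D2:**
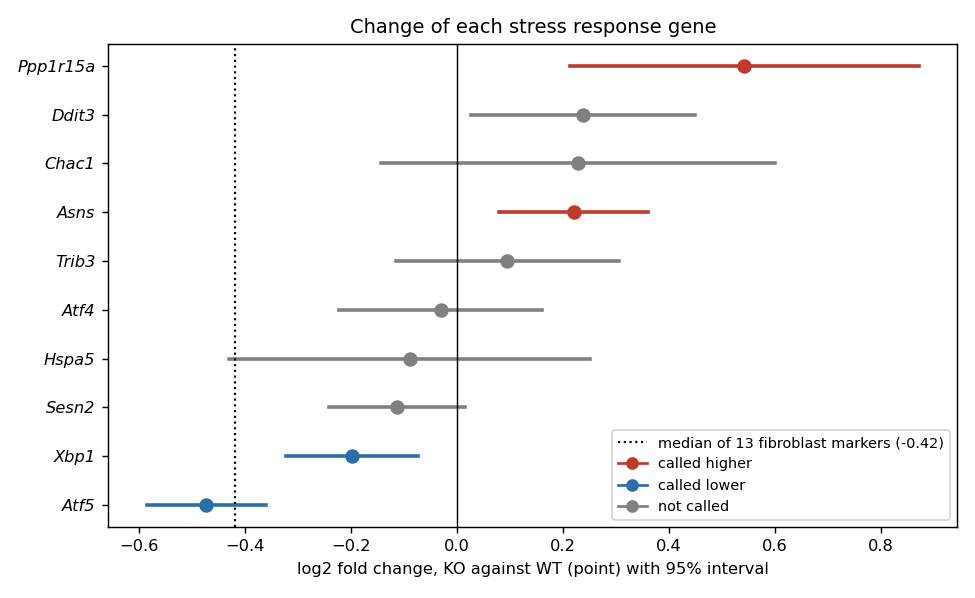
Log2 fold change of the KO-labelled libraries against the WT-labelled libraries (horizontal axis) with its 95% interval from edgeR for each of the 10 genes, coloured by call, and the median of 13 fibroblast markers as a dotted line. *Ppp1r15a* and *Asns* lie above 0, *Atf5* and *Xbp1* below it on the TMM scale (*Xbp1* is at 0.20 under marker scaling), and only the intervals of *Atf5* and *Hspa5* reach the dotted line at -0.42.

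KO replicate 1 was the highest of the 6 libraries in 5 of the 10 genes, *Atf4*, *Ddit3*, *Trib3*, *Chac1* and *Asns*. It was the highest library in 24.4% of all genes tested. In the lists described below, it was the highest in 4 of 16 other genes of the ATF4 program. It was the highest in 10 of 19 genes of amino acid synthesis and import. Against the other two KO-labelled libraries it was higher by 0.26 on the log2 scale for *Atf4*, 0.24 for *Ddit3*, 0.34 for *Trib3*, 0.64 for *Chac1* and 0.15 for *Asns*. The same difference was 0.10 for *Hspa5*, 0.08 for *Sesn2*, -0.02 for *Xbp1*, -0.03 for *Atf5* and -0.07 for *Ppp1r15a*. KO replicate 1 also had the highest summed endothelial markers of the 6 libraries, at 2189 CPM against 1525 and 1791 CPM in the other two labelled KO, and the lowest summed fibroblast markers. The part of these markers in the values of the stress genes was not tested.

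The ratio of each gene's counts to those of *Atf4* in the same library needs no scaling between libraries and was added after seeing the data. *Ddit3* counts were 0.163, 0.165 and 0.166 of *Atf4* counts in the KO-labelled libraries and 0.129, 0.147 and 0.134 in the WT-labelled libraries. The 3 KO ratios lay almost on one another and above every WT ratio, with a mean difference of 0.27 on the log2 scale. *Atf5* counts were 0.361, 0.428 and 0.456 of *Atf4* counts in the KO-labelled libraries and 0.558, 0.548 and 0.570 in the WT-labelled libraries, a difference of -0.44. The ratios of *Asns* (0.26 on the log2 scale) and *Ppp1r15a* (0.57) were also higher without overlap, so 4 of the 9 ratios did not overlap, beside 31.7% of the other genes tested. Each of these 4 had the smallest p possible, 0.1, in the exact permutation test (two-sided). Labels without overlap always give this p, so it adds nothing to the lack of overlap. The ratios of *Trib3*, *Chac1*, *Sesn2*, *Hspa5* and *Xbp1* overlapped between the labels.

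Levels between genes were compared per length, in the FPKM values as deposited. *Atf4* was the most abundant at 349 FPKM on average over the 6 libraries (306 to 393), higher than 99.4% of the genes tested. *Hspa5* followed at 135 FPKM (101 to 157), *Atf5* at 91.2 (75.2 to 109) and *Asns* at 76.9 (66.8 to 90.2). *Trib3* at 46.9, *Chac1* at 43.4, *Ddit3* at 39.3 and *Xbp1* at 39.1 FPKM formed a group in which each gene overlapped the next. *Sesn2* at 30.5 FPKM (27.9 to 32.0) and *Ppp1r15a* at 17.9 FPKM (12.6 to 26.2) were the lowest and did not overlap. *Hspa5* overlapped *Atf5*, and *Atf5* overlapped *Asns*, which in the KO-labelled libraries reached 83.7 ± 6.32 FPKM (SD, n = 3) against 77.4 ± 2.75 for *Atf5*. In the WT-labelled libraries the same genes were at 70.2 ± 3.02 and 105 ± 3.82 FPKM. The lengths behind the deposited FPKM exceed the exon bases of GENCODE M21 in several of these genes, with 6952 against 4229 bases for *Hspa5* and 5531 against 2937 for *Ppp1r15a*. With the exon bases instead, an alternative added after seeing the data, the first 5 places over all libraries stayed as they were, the KO means turned to 115 ± 8.67 for *Asns* and 124 ± 4.41 for *Atf5* (SD, n = 3), and *Xbp1*, *Ddit3*, *Chac1*, *Ppp1r15a* and *Sesn2* took places 6 to 10 in that order.

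**Figure D3:**
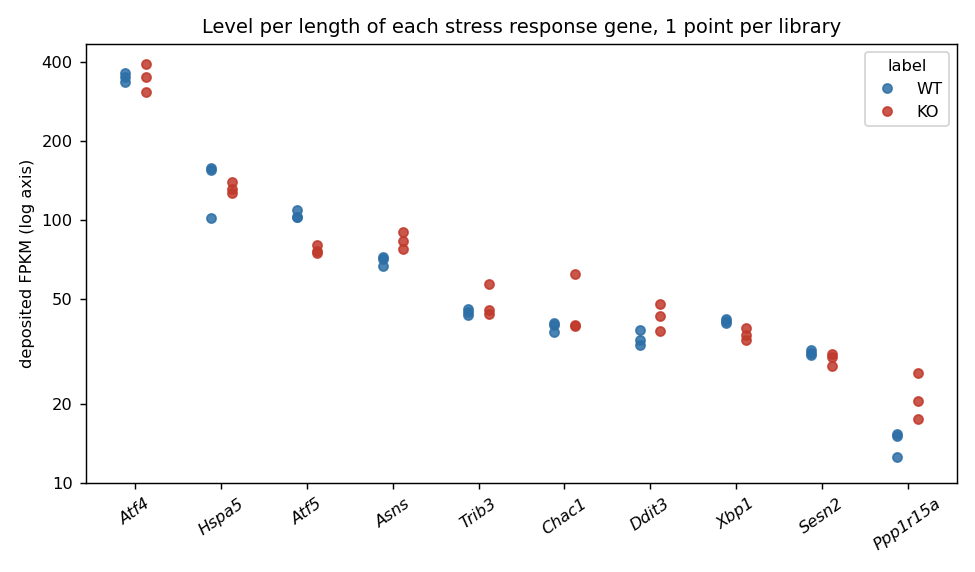
Deposited FPKM (log axis) of the 10 genes in each of the 6 libraries, ordered by their mean. *Atf4* lies above 300 FPKM in every library, *Atf5* is above *Asns* in each library labelled WT, and *Ppp1r15a* has the lowest values.

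The other genes of the 2 responses were grouped in 9 lists by role, with 128 genes tested. Of these 22 were higher and 28 lower (median log2 fold change -0.03), and under marker scaling 99 were higher and 0 lower, beside 59.9% and 0.291% of all genes. The share called higher over all genes tested was 17.7% and the share called lower was 12.5%.

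Upstream of *Atf4*, 2 of the 15 genes of eIF2 and its kinases rose, 1 fell (13 higher and 0 lower under marker scaling, which called 59.9% of all genes higher) and 12 did not pass the test. *Eif2ak2*, the kinase PKR that responds to double-stranded RNA, rose by 0.37 on the log2 scale (adjusted p = 0.0496 from edgeR), from 115 ± 14.5 to 148 ± 20.4 CPM (SD, n = 3). The other 3 kinases had log2 fold changes of 0.06 for *Eif2ak1* (HRI, heme), 0.07 for *Eif2ak3* (PERK, ER) and 0.09 for *Eif2ak4* (GCN2, amino acids), none of which passed. Under marker scaling all 3 were called, at 0.46 for *Eif2ak1*, 0.47 for *Eif2ak3* and 0.49 for *Eif2ak4* (adjusted p of at most 0.00214). *Eif2b2*, a subunit of the exchange factor for eIF2, rose by 0.28, and *Impact*, an inhibitor of GCN2 activation, had a log2 fold change of -0.28 (0.12 under marker scaling). The call of *Eif2ak2* held in 6 of 15 alternatives and was lost with a mean CPM of 1 (adjusted p = 0.0505), on the upper quartile (0.0633), with limma (0.0561 and 0.055) and without any single library other than KO replicate 2 (up to 0.151). The call of *Eif2b2* held in 9 of 15 and was lost on the upper quartile (0.0599) and without any single library other than KO replicate 3 (up to 0.112).

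Of the 19 genes of amino acid synthesis and import, 4 rose, 5 fell (11 higher and 0 lower under marker scaling) and 10 did not pass. *Slc7a11* and *Slc3a2*, which together form the cystine importer system xc-, rose by 0.52 and 0.37, and *Got1*, the cytosolic aspartate aminotransferase that makes the substrate of *Asns*, rose by 0.55 (adjusted p = 0.00495 from edgeR). *Phgdh*, the first enzyme of serine synthesis, had a log2 fold change of -0.28, and the transporters *Slc6a9* and *Slc1a4* had -0.40 and -0.28, with 0.12, 0.0075 and 0.12 under marker scaling. The call of *Slc6a9* was lost without any single library other than KO replicate 1 (adjusted p up to 0.0996). Of 13 cytosolic tRNA synthetases none rose and 3 fell, *Iars* (-0.17), *Eprs* (-0.13) and *Aars* (-0.13), and under marker scaling all 13 were called higher, as were 59.9% of all genes. None of the 3 was called on library size (adjusted p = 0.086 to 0.12), with DESeq2 (0.063 to 0.131), with limma, or without any single library other than KO replicate 1.

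Among 16 other genes of the ATF4 program 2 rose, 4 fell (10 higher and 0 lower under marker scaling) and 10 did not pass. *Atf3*, a repressor-type factor induced by ATF4 and by many other stimuli, had 160, 63.7 and 64.4 CPM in the KO-labelled libraries and 16.5, 18.2 and 17.6 CPM in the WT-labelled libraries. It rose by 2.46 on the log2 scale (standard error 0.35, adjusted p = 0.00149 from edgeR), with KO replicate 1 far above the other two. *Ero1l*, the oxidase that recharges protein disulfide isomerases, rose by 1.07, from 219 ± 8.34 to 460 ± 78.2 CPM (SD, n = 3). *Nupr1*, *Gdf15* and *Stc2*, all known as ATF4 targets, had log2 fold changes of -0.45, -0.34 and -0.31 (-0.06 for *Nupr1*, 0.06 for *Gdf15* and 0.08 for *Stc2* under marker scaling). The call of *Gdf15* was lost without KO replicate 3 (adjusted p = 0.0586) or WT replicate 3 (0.0519).

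All 3 sensors of the unfolded protein response were counted. *Ern1* (IRE1) rose by 0.48, from 89.9 ± 2.65 to 126 ± 24.4 CPM (SD, n = 3, adjusted p = 0.0174 from edgeR), and *Atf6* rose by 0.29, while *Eif2ak3* did not pass. The call of *Ern1* was lost without WT replicate 2 (adjusted p = 0.0529) or WT replicate 3 (0.0579). *Atf6b*, a close relative of *Atf6*, rose by 0.32. *Creb3l1* and *Creb3l2*, membrane-bound factors that are released in the same way as ATF6 and are known for secretory genes, had -0.51 and -0.27, and *Mbtps1*, the protease that makes the first of those cleavages, had -0.23 (-0.11 for *Creb3l1*, 0.13 for *Creb3l2* and 0.17 for *Mbtps1* under marker scaling). In all 3 of 8 genes tested rose and 3 fell (6 higher and 0 lower under marker scaling), and *Ern2*, known from gut epithelium, was at 0 in every library.

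Of 18 ER chaperones and folding enzymes, 5 rose, 2 fell (16 higher and 0 lower under marker scaling) and 11 did not pass. *Creld2* rose by 0.71, *Pdia4* by 0.47 and *Sdf2l1* by 0.42, all luminal proteins known to be induced by ER stress, and *Pdia5* and *Cnpy2* had -0.34 and -0.26 (0.06 and 0.14 under marker scaling). The call of *Pdia5* was lost without WT replicate 2 (adjusted p = 0.0587) and that of *Cnpy2* without KO replicate 3 (0.0512). *Pdia4* had 522, 486 and 502 CPM in the KO-labelled libraries and 374, 357 and 356 CPM in the WT-labelled libraries. *Hspa5* had overlapping labels (above) and was not called, as were 11 of these 18. Its difference from the named genes, which are the largest rises and falls, was not tested.

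Of 24 genes tested among the known XBP1 targets, 3 rose and 10 fell (17 higher and 0 lower under marker scaling). Those that rose were the 3 EDEM genes, which mark misfolded glycoproteins for degradation, *Edem2* (0.88), *Edem3* (0.45) and *Edem1* (0.17), at 1.29, 0.85 and 0.58 under marker scaling. The call of *Edem1* held in 8 of 15 alternatives and was lost on the upper quartile, with DESeq2 and without any single library other than KO replicate 2 (adjusted p up to 0.0907). *Edem2* had 54.0, 49.4 and 52.9 CPM in the KO-labelled libraries and 28.7, 28.4 and 27.5 CPM in the WT-labelled libraries. The largest falls were of trafficking genes, *Kdelr3* (-0.43) and *Kdelr2* (-0.28), receptors that return ER residents from the Golgi, and *Sec24d* (-0.34), a coat subunit of vesicles that leave the ER (-0.04 for *Kdelr3*, 0.12 for *Kdelr2* and 0.06 for *Sec24d* under marker scaling). The median was -0.07 (0.33 under marker scaling), beside -0.20 for *Xbp1* itself and -0.015 over all genes.

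Of 10 mitochondrial chaperones and proteases, whose induction ATF5 is known for, 2 rose, *Lonp1* (0.29) and *Clpx* (0.26), and none fell (9 higher under marker scaling). The call of *Clpx* held in 6 of 15 alternatives. It was lost without the filter, on the upper quartile, with DESeq2, with a block for replicate numbers (adjusted p = 0.052 from edgeR) and without any single library other than KO replicate 2 (up to 0.129). Among 6 close relatives of the 10 genes, *Trib1* alone was called (5 under marker scaling), at 0.73, while *Chac2*, *Trib2*, *Sesn1*, *Sesn3* and *Ppp1r15b* did not pass.

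**Figure D4:**
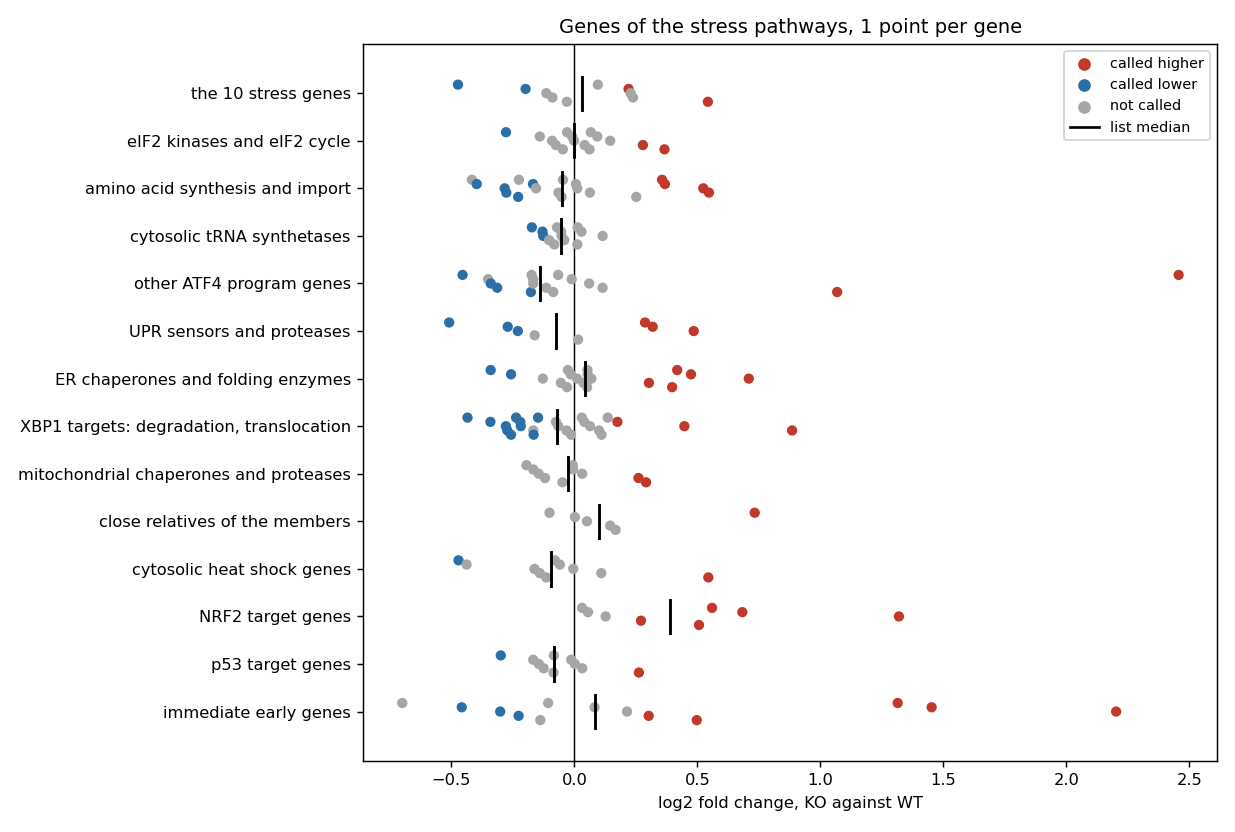
Log2 fold change of the KO-labelled libraries against the WT-labelled libraries (horizontal axis, TMM scale) for every gene tested in each list, 1 point per gene, coloured by its call, with the list median as a bar. Every row from the 10 stress genes down to the XBP1 targets, except the tRNA synthetases, has points called on both sides of 0, and under marker scaling no point is called lower and most are called higher, as are 59.9% of all genes.

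Neighbouring stress programs were read for comparison. Of 8 NRF2 targets of the oxidative stress response 5 rose and none fell (8 higher under marker scaling), with a median of 0.39, and *Nqo1* rose by 1.32, *Osgin1* by 0.68 and *Gclc* by 0.56. The call of *Osgin1* was lost without KO replicate 1, KO replicate 2, WT replicate 1 or WT replicate 2 (adjusted p up to 0.0976 from edgeR). It was also lost with a block for replicate numbers (0.067). Of 10 cytosolic heat shock genes *Hsph1* (0.54) rose and *Hspb1* (-0.47, and -0.08 with adjusted p = 0.547 from edgeR under marker scaling) fell. Of 10 p53 targets *Mdm2* (0.26) rose and *Ccng1* (-0.30, 0.10 under marker scaling) fell. The *Mdm2* call was lost without WT replicate 2 (adjusted p = 0.0597 from edgeR). Under marker scaling 7 heat shock genes and 6 p53 targets were higher and 0 lower, beside 59.9% and 0.291% of all genes. On the TMM scale 17.7% of all genes were higher and 12.5% lower. Of 13 immediate early genes, which respond to handling as well as to signals, 5 rose and 3 fell (10 higher and 0 lower under marker scaling). *Fosb* rose by 2.20, *Nr4a1* by 1.45 and *Dusp1* by 1.31, and *Egr1* (-0.46), *Btg2* (-0.30) and *Junb* (-0.23) fell, with *Egr1* at -0.06, *Btg2* at 0.10 and *Junb* at 0.17 under marker scaling. KO replicate 1 had the highest summed level of this list, at 1165 CPM against 1070 to 1110 CPM in the other libraries. The part of these genes in the values of the 10 stress genes was not tested.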

How the data were processed

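RNA-seq libraries were made with a strand-specific total RNA kit after oligo(dT) enrichment. The authors mapped reads with HISAT2 to mm10 and deposited whole-number counts per gene and FPKM values for 34745 genes; the counting tool, its annotation and its strand setting are not given in the sources used here. The submitters' processing notes name GRCm38.p4 and edgeR. The test was edgeR's quasi-likelihood test (version 4.0.16, R 4.3.3) on the counts of all 6 libraries, with filterByExpr and TMM, no covariate, and Benjamini-Hochberg adjustment over 14084 genes, and CPM are TMM-normalized. With totals of 12025403 to 15329427, precision is limited by 3 libraries a label. A floor of 3 counts and all intervals cover counting or replicate error only. The test was checked on simulated data.

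The 10 genes and all lists were chosen with earlier results of these data known, and 1 alternative, marker scaling, too. Named are the 10 genes, *Kdm5b*, *Atf3*, all eIF2 kinases and sensors, and in each list at most 3 genes of largest rise and 3 of largest fall, called, with a mean FPKM of at least 1. Other names are said to be chosen after their values were seen or complete a count. The settings varied were the filter (none, or a mean CPM of 1), the scaling (library size, upper quartile, marker scaling), the tool (DESeq2 1.42.0, limma 3.58.1 on log2(FPKM + 1) and log2(FPKM + 0.1)), a block for replicate numbers, single libraries left out and a 2-fold threshold. Gene positions are those of the deposited table. Promoters came from RefSeq (GRCm38.p6), exon bases from GENCODE M21. Single genes had exact permutation tests (scipy 1.17.1).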

Additional observations from a re-analysis of the deposited data

How the results depend on the processing

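The counts of 2 genes higher and 2 lower among the 10 were kept without the filter, with a mean CPM of 1, on library size, and with DESeq2 and limma at both pseudocounts. On the upper quartile 1 was higher. Under marker scaling 8 were higher and 0 lower, against 8438 and 41 of all genes (2488 and 1760 on the TMM scale). Adding a 2-fold threshold left 0 and 0 of the 10, and 844 and 38 of all genes. With single libraries left out, 0 to 2 of the 10 were higher and 1 to 2 lower, and between 1131 and 1614 of all genes were lower, the 1131 without KO replicate 3.
Signs changed under marker scaling to 0.37 for *Atf4*, 0.29 for *Sesn2*, 0.31 for *Hspa5*, 0.20 for *Xbp1* and 0.18 for *Kdm5b*. They also changed to 0.12 for *Impact*, 0.0075 for *Slc6a9*, 0.12 for *Phgdh*, 0.12 for *Slc1a4*, 0.23 for *Iars*, 0.27 for *Eprs*, 0.27 for *Aars*, 0.061 for *Gdf15*, 0.084 for *Stc2*, 0.13 for *Creb3l2*, 0.17 for *Mbtps1*, 0.056 for *Pdia5*, 0.14 for *Cnpy2*, 0.058 for *Sec24d*, 0.12 for *Kdelr2*, 0.10 for *Ccng1*, 0.10 for *Btg2* and 0.17 for *Junb*, since this scaling moves every gene upward. On library size *Atf4* was at 0.0036. With single libraries left out the log2 fold change ran from -0.11 to 0.062 for *Atf4*, -0.020 to 0.17 for *Trib3*, -0.010 to 0.35 for *Chac1* and -0.27 to 0.017 for *Hspa5*. The cause was not tested.
Replicate numbers did not pair the libraries. Same-numbered libraries correlated at 0.002, 0.003 and 0.035 in their deviations, and KO replicates 1, 2 and 3 correlated best with WT replicates 2, 1 and 3. The replicate block gave 2 higher and 2 lower among the 10, and 2316 higher and 1591 lower over all genes. With the block *Kdm5b* passed the threshold (adjusted p = 0.0271), and *Eprs* (0.0588), *Aars* (0.0665), *Clpx* (0.052) and *Osgin1* (0.067) no longer did.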
